A study of Mus musculus with 10 samples.

Results

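The 48 genes described here carry out or control DNA replication and mitosis, and were chosen by name from the 39273 genes of the deposited table. They comprise 13 genes of replication origin licensing and the replicative helicase, 7 genes of DNA synthesis and nucleotide supply, 20 mitosis genes, 4 G1 and S phase cyclins and 4 transcription factors of the cell cycle. The first 20 genes are called replication genes below. Their mRNA was followed in mouse ureteric bud (UB) organoids, in collecting duct (CD) organoids made from them, and in adult mouse CD (mCD) cells, with 2 RNA-seq libraries in each of 5 groups.

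UB organoids are branching epithelial cultures grown from the UB of embryonic day 11 (E11.5 in the source names) mouse kidneys. The labels give C57BL/6 x Swiss Webster as the background and Wnt11-RFP +/- as the genotype, a reporter allele of the UB tip. They were kept for 5, 10 or 20 days in mUBCM, a medium with FGF9, GDNF and R-Spondin1 as growth factors together with TTNPB, CHIR99021, LDN193189, A83-01, JAKI and SB202190. CD organoids were day 10 UB organoids moved for a week into CDDM, a medium with FGF9, Y27632, DAPT, the MEK inhibitor PD0325901, aldosterone and vasopressin. Adult mCD cells were sorted as Venus-positive cells from kidneys of Hoxb7-Venus mice about 2 months old, although the sample labels call them organoids and repeat the embryonic age and the Wnt11-RFP genotype. Hoxb7 drives the reporter in the whole ureteric epithelium, so that principal and intercalated cells enter this gate together. Nothing states that the libraries of a group came from separate cultures or animals, so the p-values measure only the spread between these libraries.

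Before S phase, the origin recognition complex with Cdc6 and Cdt1 loads the Mcm2 to Mcm7 ring onto DNA, and Cdc45 and the GINS complex then turn it into the active helicase. Most mitosis genes are transcribed later, from S phase into G2 and M, and their products are destroyed as cells divide. In the embryonic kidney the UB tip is the proliferating compartment of the ureteric tree, whereas most cells of the adult CD are out of the cycle. In RNA from whole cultures, fewer cycling cells and less RNA of a gene in each cycling cell cannot be told apart.

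The libraries held between 11913613 and 24536676 counts, with the 4 libraries of days 5 and 10 (22858971 or more) deeper than the other 6 (16759872 or fewer), and 3 counts corresponded to between 0.122 and 0.252 CPM, that is counts relative to the library total. Only 1 value of the members, that of Fen1 in an adult mCD library, lay at or under 3 counts. The 4 Y-linked genes summed to at most 0.875 CPM at days 5 and 10 and to at least 230 CPM in every other library, so the libraries of days 5 and 10 differ from the others in their source. In comparisons of day 20 or CD organoids with day 5 or 10, this difference cannot be told apart from age or treatment, whereas day 10 against day 5, and CD organoids or adult mCD against day 20, lie on one side of it. UB tip markers summed to 1644 to 3053 CPM over 5 genes in UB organoids. All 5 were above 1 CPM in both libraries at days 5 and 10, but only 4 at day 20. The sum was near 25 CPM in CD organoids and 29.5 to 41.0 CPM in adult mCD. In CD organoids principal cell markers reached 666 to 820 CPM, with 4 of 5 above 1 CPM, and intercalated cell markers 1185 to 1275 CPM. In adult mCD these sums were 9559 to 9874 and 1858 to 1894 CPM. Stroma markers summed to 63.4 to 120 CPM in CD organoids, 73.5 to 79.6 CPM in adult mCD and at most 18.0 CPM in UB organoids. Adult mCD libraries also held proximal tubule markers, 6 of 6 above 1 CPM with a sum of 7997 to 9964 CPM against 7.19 to 17.0 in CD organoids, and all 4 endothelial markers (499 to 506 CPM). Mitochondrial genes took 9.64 to 9.86% of the adult counts and 0.969 to 3.39% elsewhere. The part of other cells in the CD organoid and adult values was not tested.

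Most of these genes, and nearly all mitosis genes, had their highest level at day 5, fell through day 20 and were far lower in CD organoids. The cyclins and several replication genes, among them Tyms, Rrm2, Mcm4 and Mcm7, had their highest mean at day 10 or 20. Genes were tested with edgeR's quasi-likelihood test, and adjusted p values are after Benjamini-Hochberg correction over 24410 genes, with 0.05 as the threshold for the counts below. From day 5 to day 10, 28 of 48 members fell and 4 rose, where 16.9% of all genes tested were lower and 15.8% higher. From day 10 to day 20, 29 fell and 2 rose, against 16.0% and 13.0% of all genes. Over the whole span from day 5 to day 20, 35 fell and 4 rose, where the background was 24.6% lower and 20.6% higher. In CD organoids all 48 members were below their day 10 level, against 25.2% of all genes lower and 22.1% higher, and 38 of them were lower by more than 4-fold at an adjusted p of at most 0.01, a rule met by 5.71% of all genes. Against day 20 UB organoids 47 were lower in CD organoids, where 21.3% of all genes were lower, and Fen1 did not pass the test. In adult mCD 47 were lower than at day 20, with a background of 27.1% lower and 29.3% higher. No member was higher there. Several comparisons share libraries, so these counts are not independent of each other.

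**Figure D1:**
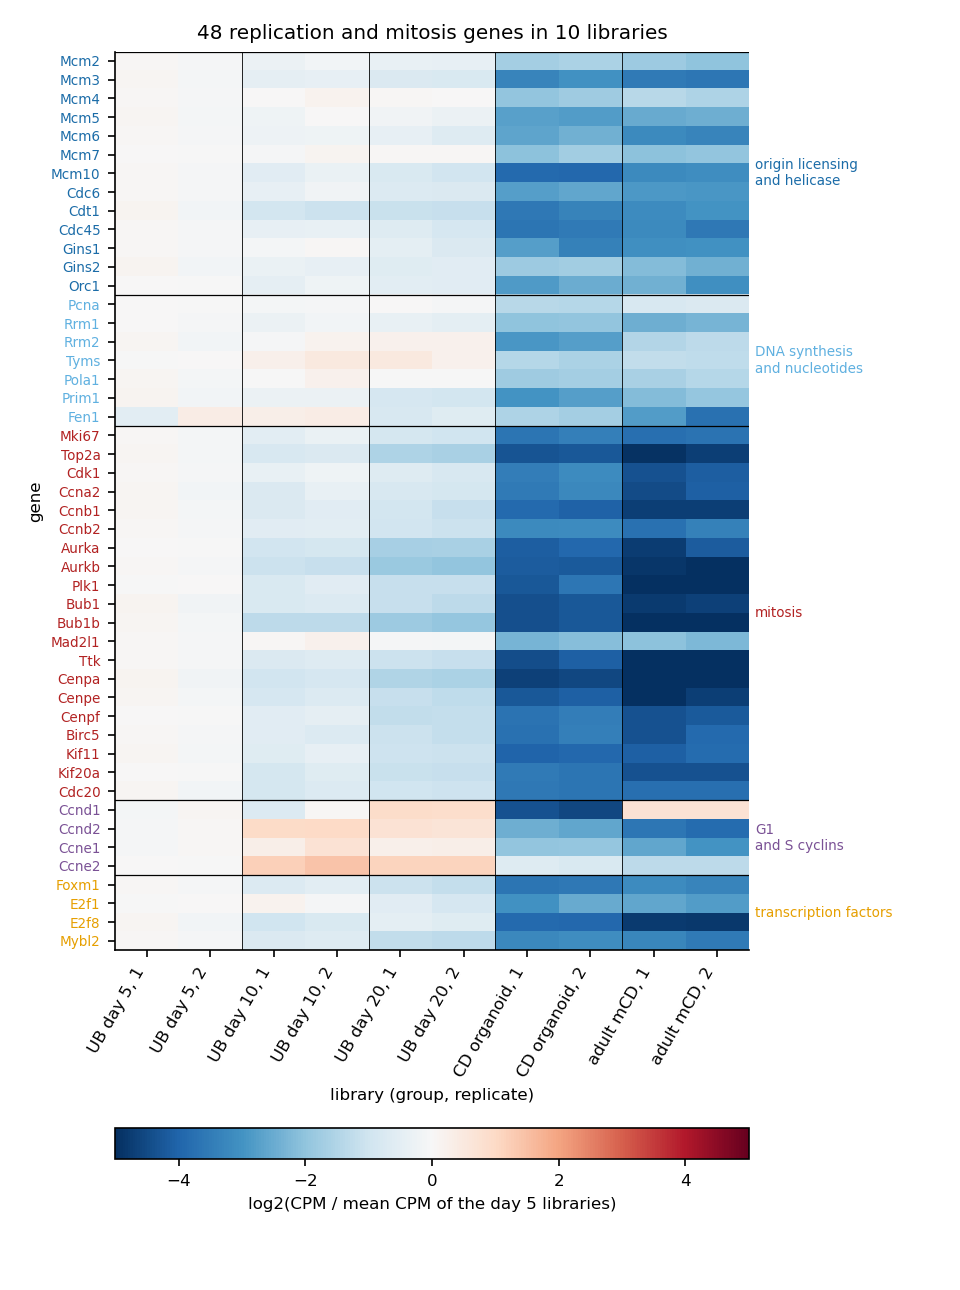
Level of each of the 48 genes (rows, coloured by role) in each of the 10 libraries (columns), as log2 of its CPM over the mean CPM of both day 5 libraries. Blue is below day 5 and red above; all 48 genes are blue in CD organoids, and Ccnd1 is the only gene at or above its day 5 level in adult mCD.

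Replication and mitosis genes did not fall to the same extent. The median replication gene stood at 87.3% ± 5.18 of its day 5 level at day 10 (SD, n = 2), at 70.3% ± 3.23 at day 20, at 17.0% ± 1.82 in CD organoids and at 18.7% ± 0.0257 in adult mCD. For the median mitosis gene the same values were 62.1% ± 3.73, 45.8% ± 1.499, 6.87% ± 0.506 and 4.63% ± 0.667. On the log2 scale the gap between the medians was thus 0.49 ± 0.0010 at day 10, 0.62 ± 0.019 at day 20, 1.31 ± 0.048 in CD organoids and 2.02 ± 0.21 in adult mCD. No p is given for this gap, since the genes are not replicates, but the libraries of neighbouring groups did not overlap in it. Summed over the 20 genes of each kind, mitosis genes had 2.56 and 2.49 times the CPM of replication genes in the day 5 libraries. That ratio was 1.82 and 1.84 at day 10, 1.39 in both day 20 libraries, 0.822 and 0.866 in CD organoids, and 0.542 and 0.587 in adult mCD. The mitosis genes thus had the larger summed CPM in all UB libraries and the replication genes in all CD libraries, cultured or adult. Mki67 and Top2a weigh heavily in these sums, with 954 and 956 of a mean of 4601 CPM at day 5. At day 20 they had 498 and 321 of 2011 CPM, where the replication genes had 1447. The order of the sums at day 20 therefore rests on Mki67 and Top2a.

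**Figure D2:**
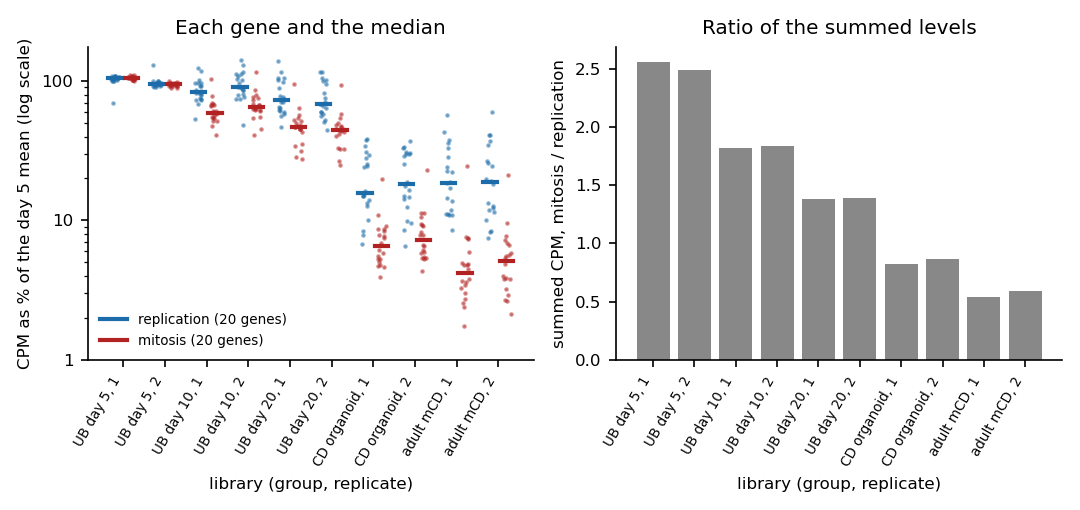
Left, CPM of the 20 replication genes (blue) and 20 mitosis genes (red) in each library as a percent of each gene's day 5 mean, on a log axis, with a bar at the median; right, summed CPM of the mitosis genes divided by that of the replication genes. The medians part at day 10 and are furthest apart in adult mCD, and the ratio drops from 2.56 and 2.49 at day 5 to 0.542 and 0.587 in adult mCD.

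The origin licensing and helicase genes fell little over the UB culture and much in CD organoids. From day 5 to day 20, 10 of 13 fell and none rose, where 24.6% of all genes tested were lower and 20.6% higher. Their median log2 change was -0.58 against -0.05 over all genes tested. The Mcm ring, whose 6 subunits encircle DNA together, did not move as a block. Mcm3 had 224 and 197 CPM at day 5, 154 and 157 at day 10, 127 and 123 at day 20, 21.1 and 26.1 in CD organoids, and 18.1 and 17.4 in adult mCD. Its libraries do not overlap between any of the groups, and the log2 change from day 5 to day 20 was -0.75 ± 0.088 (SE, adjusted p = 1.06e-05). Mcm4 had 127 and 118 CPM at day 5, 124 and 136 at day 10, 128 and 125 at day 20, 31.0 and 35.4 in CD organoids, and 46.4 and 42.4 in adult mCD. Its UB organoid libraries overlapped (log2 change to day 20 of 0.05 ± 0.082, adjusted p = 0.675), whereas every CD library lay below them. Mcm7 also did not pass from day 5 to day 20 (0.07 ± 0.091, adjusted p = 0.592), nor did Mcm5 (-0.23 ± 0.093, adjusted p = 0.0633), while Mcm2 (-0.39 ± 0.084, adjusted p = 0.00156) and Mcm6 (-0.53 ± 0.092, adjusted p = 0.000327) fell. Cops6, which overlaps Mcm7 on the opposite strand, averaged 87.1 CPM, so part of the Mcm7 reads may be shared.

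The licensing factor Cdt1, which is destroyed once S phase begins, had the largest fall of the replication genes in the UB organoids. It went from 73.0 and 60.2 CPM at day 5 to 35.4 and 32.0 at day 10, a log2 change of -0.98 ± 0.11 (adjusted p = 1.86e-05), and then to 31.1 and 29.6 at day 20. Between days 10 and 20 its change did not pass the test (-0.15 ± 0.11, adjusted p = 0.359).

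In CD organoids the steepest falls among these genes were those of Mcm10, Cdc45 and Gins1, which act where the loaded ring becomes an active helicase. Mcm10, which joins the helicase as it starts, had 58.3 and 52.5 CPM at day 5, 37.7 and 44.1 at day 10, 33.0 and 28.2 at day 20, 3.77 and 3.61 in CD organoids, and 6.18 and 6.37 in adult mCD. Its log2 change from day 10 to CD organoids was -3.45 ± 0.14 (adjusted p = 2.93e-10), the largest of the 20 replication genes. Cdc45, the helicase cofactor, changed by -3.18 ± 0.16 (adjusted p = 1.43e-09) and Gins1, a GINS subunit, by -2.95 ± 0.21 (adjusted p = 5.42e-08). At the other end, Gins2 fell by 1.39 ± 0.15 on the log2 scale and Mcm2 by 1.44 ± 0.088, so that subunits of the same complex (Gins1 and Gins2, Mcm2 and Mcm3) fell by different amounts. Gse1, which overlaps Gins2 on the opposite strand, averaged 54.4 CPM, and Ufd1, which overlaps Cdc45 in the same way, averaged 55.3 CPM. Part of the reads of Gins2 and Cdc45 may therefore be shared, and the size of their falls is uncertain. In CD organoids Mcm2 kept 48.4 and 51.7 CPM and Mcm3 21.1 and 26.1, where Mcm2 had 129 and 142 CPM and Mcm3 154 and 157 at day 10.

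Of the 7 genes that make DNA or its precursors, Rrm1 and Prim1 fell from day 5 to day 20 and Tyms rose, numbers that lie near the background of 24.6% lower and 20.6% higher. The Tyms call at day 20 (0.35 ± 0.11, adjusted p = 0.0146) was lost without the first day 5 library (adjusted p = 0.0556), the second (0.0516) or the first day 20 library (0.190). The median log2 change was -0.02. Pcna, the sliding clamp of the DNA polymerases, had 120 and 115 CPM at day 5, 109 and 114 at day 10, 121 and 112 at day 20, 45.1 and 44.1 in CD organoids, and 67.2 and 71.0 in adult mCD. Its UB libraries overlapped across the 3 ages (log2 change to day 20 of -0.02 ± 0.070, adjusted p = 0.884). Pcna also had the smallest fall of all 48 members in CD organoids, by 1.32 ± 0.074 on the log2 scale (adjusted p = 4.76e-09). Tyms, which makes thymidylate, rose from 47.7 and 48.2 CPM at day 5 to 56.9 and 67.6 at day 10 (0.38 ± 0.10, adjusted p = 0.0131) and lay at 66.6 and 55.7 at day 20. The rise to day 10 did not pass without the first day 5 library (adjusted p = 0.0596), without the second (0.0515) or without the second day 10 library (0.102).

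Rrm1 and Rrm2, the large and small subunits of ribonucleotide reductase, differed in their course. Rrm2 had 95.3 and 80.5 CPM at day 5, 85.2 and 98.4 at day 10, 103 in both day 20 libraries, 11.7 and 13.0 in CD organoids, and 31.7 and 35.8 in adult mCD. The day 20 values lie above all earlier ones, but the change from day 5 did not pass the test (0.23 ± 0.098, adjusted p = 0.0784). It did pass under 5 alternatives, namely library totals alone (adjusted p = 0.0133), quantile-normalized values (0.0356), a stricter filter on low counts (0.0279), the 4 libraries compared alone (0.0401) and without the first day 5 library (0.0191). Rrm1 went from 273 and 258 CPM at day 5 to 206 and 188 at day 20 (-0.43 ± 0.077, adjusted p = 0.000441). In CD organoids Rrm2 fell by 2.89 ± 0.12 on the log2 scale and Rrm1 by 1.79 ± 0.082 from day 10. Prim1, the catalytic subunit of primase, changed by -2.55 ± 0.13 in the same comparison. Fen1, the flap endonuclease of lagging strand synthesis, was listed at between 0.157 and 2.74 CPM in all 10 libraries, while Tmem258, which overlaps it on the opposite strand, averaged 30.6 CPM, and whether the counting used strand is not given in the sources used here. The level of Fen1 is therefore uncertain, and it is the only replication gene without a call between CD organoids and day 20 (adjusted p = 0.114).

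Mitosis genes fell at each step of the UB culture and again in CD organoids. From day 5 to day 10, 19 of 20 fell, where 16.9% of all genes tested were lower. From day 10 to day 20, 17 of 20 fell, against 16.0% of all genes. In CD organoids all 20 were below day 10, against 25.2% of all genes. All 20 fell there by more than 4-fold at an adjusted p of at most 0.01. Among replication genes, 11 of 20 met that stricter rule, against 5.71% of all genes tested. The median log2 change of the mitosis genes was -0.67, -0.49 and -3.07 in these comparisons, against -0.20, -0.21 and -2.29 for replication genes and 0.02, -0.10 and -0.15 over all genes tested. The counts at day 20 depend on the libraries used. Without the second day 20 library only 12 of the 48 members, rather than 29, fell from day 10 to day 20.

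Mki67 encodes the Ki-67 protein that coats mitotic chromosomes and lies on the minus strand of chromosome 7, at chr7:135689784-135716361 of GRCm38. It had 1007 and 902 CPM at day 5, 666 and 760 at day 10, 516 and 481 at day 20, 74.98 and 90.2 in CD organoids, and 70.9 and 73.3 in adult mCD. Both libraries of each UB age lie below both of the age before, and the log2 change from day 5 to day 20 was -0.94 ± 0.097 (adjusted p = 3.40e-06). In CD organoids Mki67 fell by 3.11 ± 0.11 on the log2 scale from day 10 (adjusted p = 5.82e-11). Top2a, the topoisomerase that untangles sister chromatids, had 1028 and 884 CPM at day 5, 545 and 586 at day 10, 329 and 314 at day 20, 48.1 and 50.5 in CD organoids, and 31.3 and 36.2 in adult mCD. Its log2 change from day 5 to day 20 was -1.57 ± 0.091 (adjusted p = 1.93e-08). Its UB libraries too went down at each age without overlap, to 33.6% of the day 5 level at day 20, where Mki67 kept 52.2%.

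The largest falls in the UB organoids were those of Aurkb and Bub1b, which were chosen for naming after their values were seen. Aurkb, the kinase of the passenger complex, had 126 and 113 CPM at day 5 and 33.0 and 30.1 at day 20 (-1.92 ± 0.089, adjusted p = 3.20e-09). Bub1b, which encodes the checkpoint protein BubR1, had 262 and 227 CPM at day 5, 99.6 and 99.7 at day 10, then 70.0 and 64.8 at day 20. Most of its change came before day 10 (-1.29 ± 0.082, adjusted p = 2.10e-07). Cdk1, the kinase that drives entry into mitosis, fell least of the mitosis genes that passed, with 165 and 153 CPM at day 5 and 103 and 92.0 at day 20 (-0.71 ± 0.094, adjusted p = 3.32e-05).

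Mad2l1, the checkpoint protein Mad2, was the exception among mitosis genes. It had 58.3 and 54.6 CPM at day 5, 58.0 and 65.1 at day 10, 54.0 and 53.2 at day 20, 11.3 and 13.0 in CD organoids, and 13.8 and 12.03 in adult mCD. Its change from day 5 to day 20 did not pass the test (-0.07 ± 0.093, adjusted p = 0.554), and in CD organoids it had the smallest fall of the 20 mitosis genes, by 2.34 ± 0.11 on the log2 scale (adjusted p = 7.24e-10). The largest fall in CD organoids was that of Cenpa, the histone H3 variant of centromeres. Cenpa had 235 and 190 CPM at day 5, 110 and 117 at day 10, 75.5 and 70.6 at day 20, 8.33 and 9.14 in CD organoids, and 3.69 and 4.56 in adult mCD. The change from day 10 to CD organoids was -3.70 ± 0.13 (adjusted p = 5.18e-11), which left 7.68% of the day 10 level. Bub1 (-3.58 ± 0.14) and Ttk (-3.54 ± 0.13), both kinases of the spindle checkpoint, followed, and Ccnb2, a B-type cyclin of mitosis, fell by 2.62 ± 0.11 on the log2 scale.

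**Figure D3:**
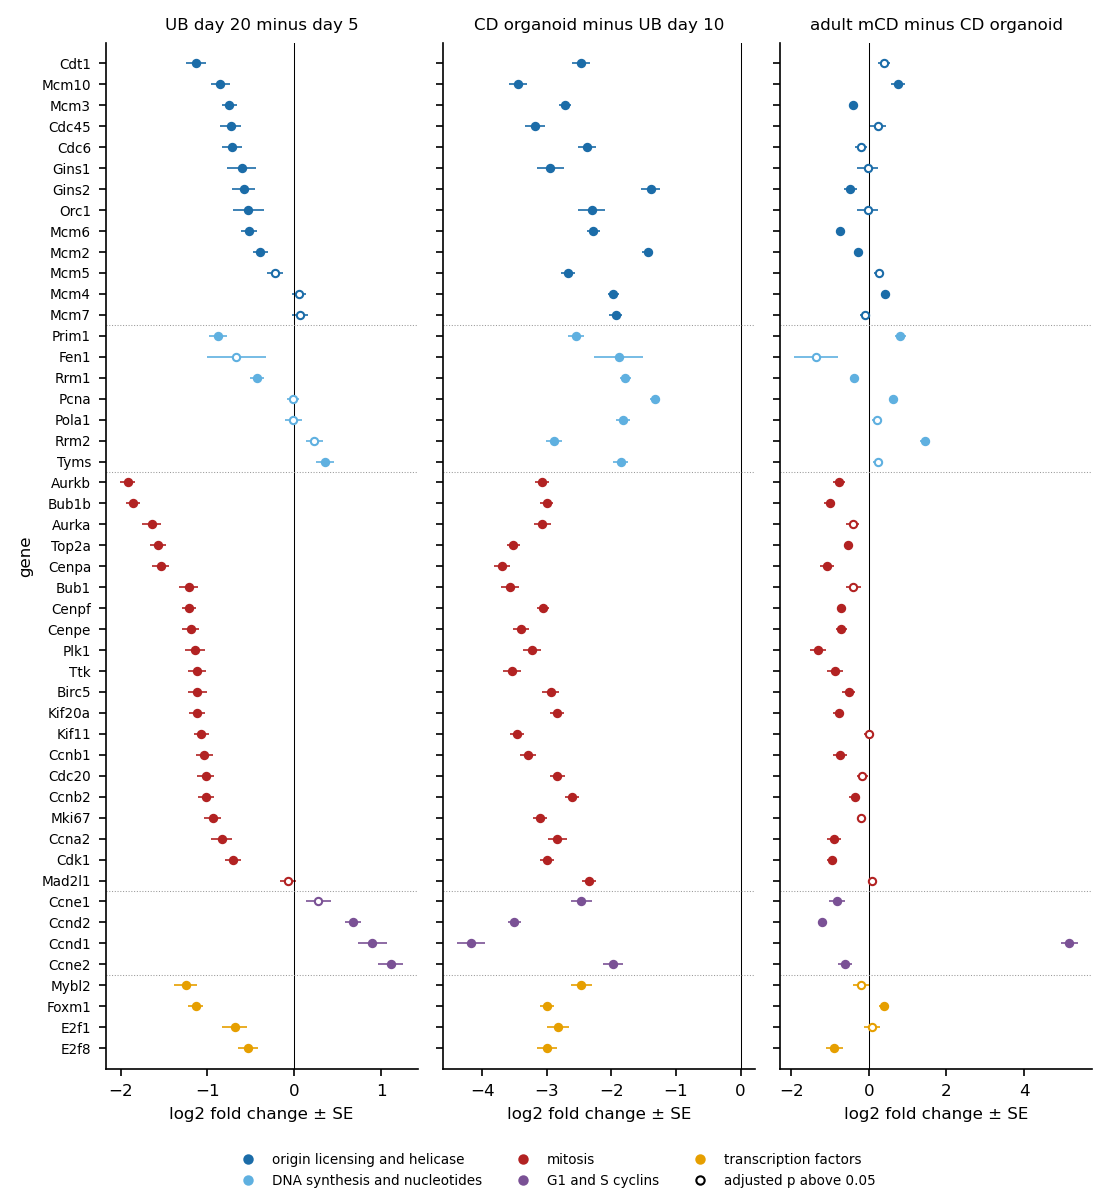
Log2 fold change ± SE of each of the 48 genes in 3 comparisons, coloured by role and ordered within a role by the change from day 5 to day 20; open circles did not reach an adjusted p of 0.05. Mitosis genes (red) lie to the left of most replication genes (blue) in the first and second panels, and in the third panel Ccnd1 stands alone at 5.16.

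Promoters of both kinds of gene carry known cell cycle motifs, and they were read here from RefSeq windows on GRCm38.p6 that run from 250 bases before to 50 bases after each start. Of the 48 members, 38 had such a window, among them 17 replication and 17 mitosis genes. Genes of G2 and M phase are known for the cell cycle genes homology region (CHR), searched as TTTGAA and in its variant TTCGAA, and genes of G1 and S phase for E2F sites, searched as TTCCCGC and with 2 variants of these letters, namely TTGGCGC and then TTCGCGC. Both strands were searched, and matches may overlap each other. A CHR-type match was found in 13 of 17 mitosis genes and 4 of 17 replication genes, against 21.7% of 27025 genes with a window. An E2F-type match was found in 11 of 17 replication genes and 3 of 17 mitosis genes, against 9.20% of all. The CCAAT box, searched as CCAAT, was found in 15 of 17 mitosis genes and 13 of 17 replication genes, against 41.1% of all. In 12 of the mitosis genes a CHR-type match lay within 50 bases of the start. The share of all genes with a match so near was not computed, and the windows themselves end 50 bases after the start. These matches are descriptions of sequence and not shown to be bound in these cells.

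The following stretches of 30 bases show a CHR-type match in capitals, so that the shared letters can be seen. They are from the mitosis genes Top2a, Bub1, Ttk and Cenpa, which had the largest falls in CD organoids among those named above, and from Ccnb2, which had one of the smallest. For each gene the match nearest the start is shown, so their place in part reflects this choice. Top2a also had matches from positions -179, -140 and -120, and Ccnb2 had another from -167. Positions count from the first transcribed base as 1.
Top2a, chr11:99024195-99024224, minus strand, match from position -23, reverse strand: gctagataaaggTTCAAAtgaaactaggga
Ccnb2, chr9:70421533-70421562, minus strand, match from position 5: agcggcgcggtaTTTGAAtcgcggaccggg
Bub1, chr2:127831828-127831857, minus strand, match from position 15: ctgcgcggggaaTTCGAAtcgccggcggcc
Ttk, chr9:83834684-83834713, plus strand, match from position 8, reverse strand: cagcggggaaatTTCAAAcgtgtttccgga
Cenpa, chr5:30666890-30666919, plus strand, match from position 17: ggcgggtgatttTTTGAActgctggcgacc

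For comparison, 4 replication genes are shown with an E2F-type match in capitals, though Mcm3 and Mcm6 held others in their windows.
Mcm3, chr1:20820275-20820304, minus strand, match from position 20, reverse strand: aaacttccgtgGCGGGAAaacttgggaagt
Mcm6, chr1:128359733-128359762, minus strand, match from position -46: attggacgggtTTGGCGCgaagtagctcag
Rrm1, chr7:102441617-102441646, plus strand, match from position -67: aggagaactcgTTCCCGCcaggtccgcttt
Prim1, chr10:128015189-128015218, plus strand, match from position -15: ggcctgtcttgTTCCCGCcaattctcgtgt
In Prim1 the match overlaps a CCAAT box by its last base. Among the mitosis genes with a window, Mad2l1 and Birc5 held none of the 3 motifs in this stretch.

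The size of the change was compared between genes with and without the motif. From day 10 to CD organoids the median log2 change was -3.11 for the 13 mitosis genes with a CHR-type match and -3.12 for the 4 without. For replication genes it was -2.31 for the 11 with an E2F-type match and -2.37 for the 6 without. From day 5 to day 20 the medians were -1.15 and -1.08 for the mitosis genes with and without a CHR-type match, and -0.53 and -0.20 for the replication genes with and without an E2F-type match. These medians were not tested.

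**Figure D4:**
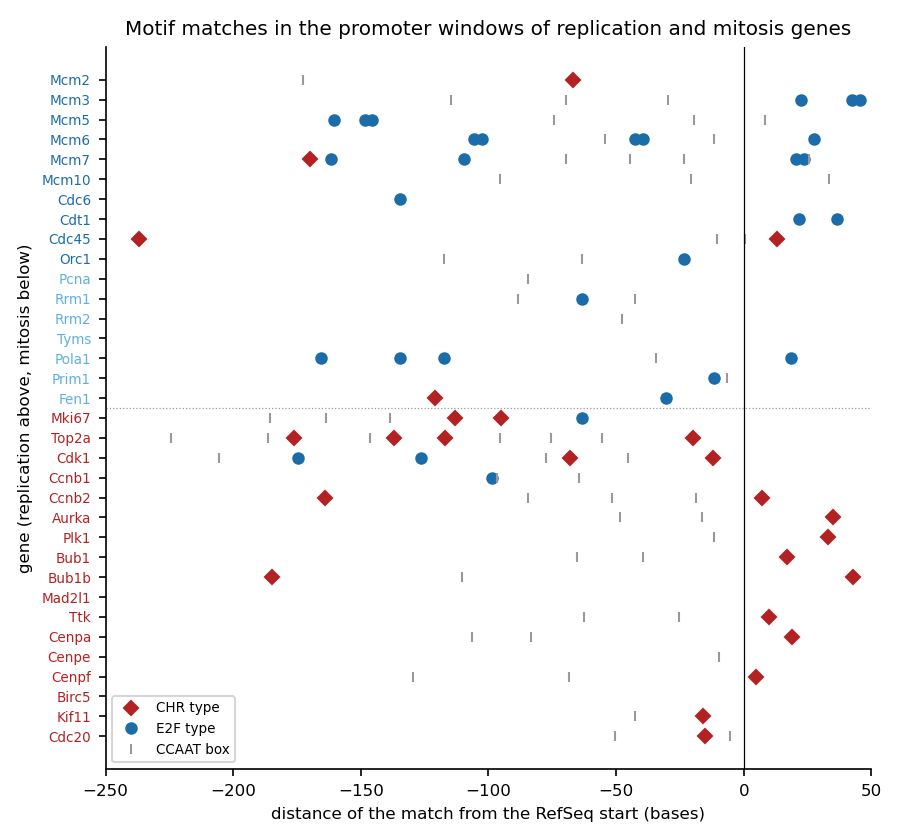
Place of each match to the CHR-type (red), E2F-type (blue) and CCAAT (grey) motifs in the promoter windows of 17 replication and 17 mitosis genes, as distance in bases from the RefSeq start. CHR-type matches lie within 50 bases of the start in 12 of the mitosis genes, and E2F-type matches lie in the windows of 11 of the replication genes and 3 of the mitosis genes.

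Of the 4 cyclins of G1 and S phase, 3 rose from day 5 to day 10 and none fell, where 15.8% of all genes tested were higher and 16.9% lower. From day 10 to day 20, Ccnd1 rose and Ccnd2 fell, where 13.0% of all genes were higher and 16.0% lower. Ccnd2, a D-type cyclin that partners Cdk4 and Cdk6 in G1, had 695 and 752 CPM at day 5, 1403 and 1457 at day 10, 1188 and 1118 at day 20, 133 and 119 in CD organoids, and 59.9 and 49.99 in adult mCD. Its rise to day 10 was 0.98 ± 0.091 on the log2 scale (adjusted p = 3.73e-06), and its fall in CD organoids was -3.50 ± 0.10 (adjusted p = 1.23e-11). Ccne1 and Ccne2 encode the E-type cyclins that bring cells from G1 into S phase. Ccne2 rose from 7.22 and 7.10 CPM at day 5 to 16.3 and 19.1 at day 10 (1.30 ± 0.14, adjusted p = 1.33e-05) and stayed at 15.4 and 15.7 at day 20. Ints8, which overlaps Ccne2 on the opposite strand, averaged 56.0 CPM, so part of the reads may be shared. Ccne1 rose from 20.2 and 22.2 to 26.1 and 34.9 CPM by day 10 (0.52 ± 0.14, adjusted p = 0.0106), a call that was lost without the first day 5 library (adjusted p = 0.0751) or the second day 10 library (0.106).

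Ccnd1, the D-type cyclin at chr7:144929931-144939925 on the minus strand, had a course of its own. It had 225 and 254 CPM at day 5, 147 and 252 at day 10, 452 and 441 at day 20, 11.7 and 10.2 in CD organoids, and 401 and 391 in adult mCD. Day 10 and day 5 libraries overlapped, with the day 10 libraries far apart from each other. Ccnd1 did not pass from day 5 to day 10 (-0.26 ± 0.17, adjusted p = 0.266), but was lower at day 10 without the second day 10 library (-0.71, adjusted p = 4.82e-06) and without a filter on low counts (-0.27, adjusted p = 0.0094). Also, both day 20 libraries were higher than either (day 20 against day 10, 1.16 ± 0.17, adjusted p = 0.000219). From day 10 to CD organoids Ccnd1 had the largest fall of the 48 members, -4.18 ± 0.22 (adjusted p = 2.22e-09). Both adult mCD libraries lay below both day 20 libraries, a difference that did not pass the test (-0.17 ± 0.17, adjusted p = 0.416) but did with library totals alone (-0.63, adjusted p = 0.00578), with quantile-normalized values (-0.58, adjusted p = 0.0230), without a filter on low counts (-0.20, adjusted p = 0.0461) and in a fit of the 4 libraries compared (-0.18, adjusted p = 0.0216). Under each of these, all 48 members were lower in adult mCD than at day 20. The adult level was 5.16 ± 0.22 higher than CD organoids on the log2 scale (adjusted p = 3.08e-10). Ccnd1 was the cyclin with the lowest share of its day 5 level in CD organoids (4.57%) and the highest in adult mCD (165%).

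**Figure D5:**
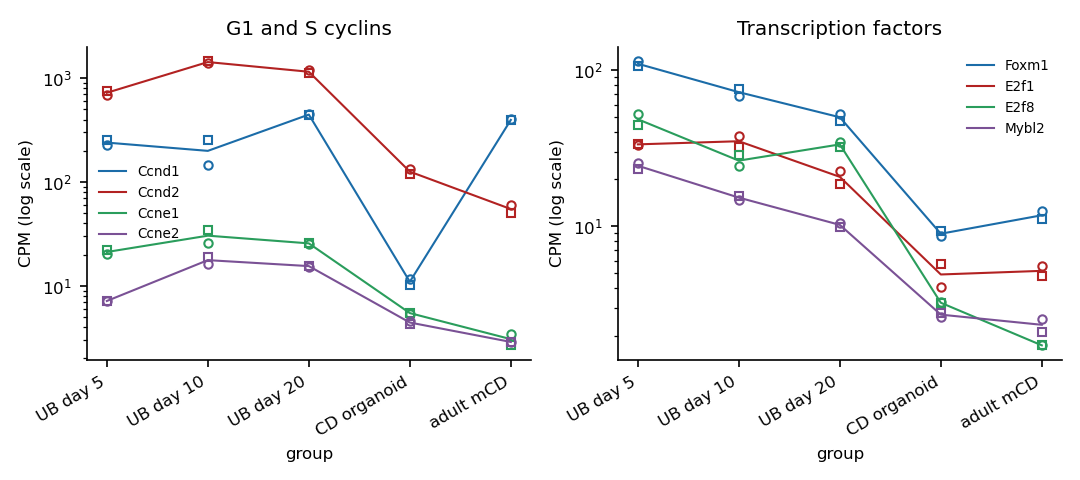
CPM on a log axis of the 4 G1 and S phase cyclins (left) and the 4 transcription factors (right) in the 5 groups; symbols are the 2 libraries of a group and lines join the group means. Ccnd1 drops to 11.7 and 10.2 CPM in CD organoids and stands at 401 and 391 CPM in adult mCD. Ccnd2 rises to day 10 and is lower in each later group.

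All 4 transcription factors fell from day 5 to day 20, along different courses, where 24.6% of all genes tested were lower. Foxm1, an activator of G2 and M phase genes, had 114 and 105 CPM at day 5, 68.3 and 75.9 at day 10, 52.3 and 47.3 at day 20, 8.62 and 9.30 in CD organoids, and 12.4 and 11.1 in adult mCD. Its libraries fell at each UB age without overlap (-1.14 ± 0.089 from day 5 to day 20, adjusted p = 2.62e-07). Mybl2, the B-Myb protein that works with Foxm1 at mitosis genes, fell in the same steps, from 25.5 and 23.3 CPM to 14.8 and 15.7 and then to 10.5 and 9.92. E2f1, an activator of S phase genes, did not change detectably from day 5 to day 10 (0.07 ± 0.13, adjusted p = 0.760) and then fell by 0.75 ± 0.14 on the log2 scale to day 20 (adjusted p = 0.00124). E2f8, an atypical E2F that represses, fell to day 10 (-0.88 ± 0.11, adjusted p = 4.96e-05) and had 24.2 and 28.4 CPM there against 34.6 and 32.2 at day 20. That rise passed the test (0.34 ± 0.11, adjusted p = 0.0368), but not without any 1 of 3 of the 4 libraries compared. It was also lost with library totals alone (adjusted p = 0.0602), with quantile-normalized values and limma (0.0536) and with DESeq2 (0.0698). All 4 factors were lower in CD organoids than at day 10, with log2 changes between -3.003 and -2.47, where 25.2% of all genes were lower. E2f8 was lower again in adult mCD, with 1.73 CPM in both libraries against 3.276 and 3.21 in CD organoids (-0.88 ± 0.22, adjusted p = 0.00426). That call was lost with limma on the deposited RPKM, with a constant added before the log2 (adjusted p = 0.110). The mean RPKM of E2f8 was 0.344 in CD organoids and 0.180 in adult mCD, low values at which this constant shrinks the change. Mybl2 did not pass between adult mCD and CD organoids (-0.21 ± 0.20, adjusted p = 0.503) but was lower in adult mCD with library totals alone (-0.59, adjusted p = 0.0305) and with quantile-normalized values (-0.82, adjusted p = 0.00109).

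Other genes of the same processes, none of them a member, were counted in the same way. Of 40 other replication genes, 26 fell and 3 rose from day 5 to day 20, and 37 fell and 1 rose from day 10 to CD organoids, with medians of -0.50 and -1.70. Of 40 other mitosis genes, 37 fell and 1 rose and then 38 fell and none rose, with medians of -1.05 and -2.72. Of all genes tested, 24.6% were lower and 20.6% higher in the first of these comparisons, and 25.2% and 22.1% in the second. Cdc7, the kinase that fires licensed origins, fell at each step, from 85.2 and 80.7 CPM at day 5 to 36.2 and 33.0 at day 20, 5.91 and 4.33 in CD organoids and 2.04 and 1.49 in adult mCD. The motor protein gene Kif15 also fell, from 162 and 132 CPM at day 5 to 67.7 and 65.8 at day 20, with 6.27 and 7.54 in CD organoids and 2.94 and 2.12 in adult mCD. Cdc25c, a phosphatase that activates Cdk1, had the largest fall of these lists in CD organoids (-3.82 ± 0.15, adjusted p = 1.57e-10). In the longer lists too, a CHR-type match was more frequent in mitosis genes (26 of 35 with a window) than in replication genes (5 of 33), and an E2F-type match was found in 20 of 33 replication genes and 10 of 35 mitosis genes.

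CD organoids and adult mCD stand for the CD in culture and in the animal. Both had little of most of these genes, but not in the same proportions. In adult mCD, Ccnd1 stood at 165% and Pcna at 58.6% of the day 5 level. Of the 48 members, 23 were lower and 7 higher in adult mCD, where 23.8% of all genes tested were lower and 26.1% higher. The lower genes included 14 of 20 mitosis genes and 5 of 20 replication genes. Of the mitosis genes none was higher, and of the replication genes 5 were, a share like that of all genes. Medians were -0.72 for mitosis genes and 0.09 for replication genes, against 0.00 over all genes tested. This gap of 0.80 was 0.34 with the deposited RPKM. There a constant was added before the log2, which shrinks the changes of genes with low RPKM. Cenpa was lower in adult mCD by 1.07 ± 0.18 on the log2 scale (adjusted p = 0.00017), Ttk by 0.86 ± 0.20 (adjusted p = 0.00274) and Top2a by 0.55 ± 0.10 (adjusted p = 0.000473), all without overlap of the libraries. Mki67 (-0.20 ± 0.10, adjusted p = 0.141) and Mad2l1 did not pass the test (0.09 ± 0.12, adjusted p = 0.556). The adult libraries of Mki67 lay below those of CD organoids, and it passed with library totals alone (-0.59, adjusted p = 0.000359), with quantile-normalized values (-0.31, adjusted p = 0.0337) and without the first CD library (-0.32, adjusted p = 0.0455). The Ttk call was lost with limma on that RPKM scale (adjusted p = 0.0623), where its mean RPKM was 0.343 in CD organoids and 0.182 in adult mCD.

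The replication genes that were higher in adult mCD than in CD organoids were Rrm2, Prim1, Mcm10, Pcna and Mcm4. Rrm2 was higher by 1.45 ± 0.12 on the log2 scale (adjusted p = 3.32e-07), with 31.7 and 35.8 CPM against 11.7 and 13.0. Prim1 was higher by 0.82 ± 0.14 (adjusted p = 0.000212), Mcm10 by 0.75 ± 0.17 (adjusted p = 0.00248), Pcna by 0.63 ± 0.076 (adjusted p = 9.27e-06) and Mcm4 by 0.42 ± 0.093 (adjusted p = 0.00181). Foxm1 was higher too (0.39 ± 0.13, adjusted p = 0.0181). Mcm6 (-0.73 ± 0.11, adjusted p = 7.18e-05), Mcm3 (-0.41 ± 0.11, adjusted p = 0.00782) and Rrm1 (-0.39 ± 0.085, adjusted p = 0.00165) were lower, so Rrm1 and Rrm2 differed in opposite directions. The Mcm3 call was lost without the second CD library (-0.24, adjusted p = 0.151) and without the second adult library (-0.36, adjusted p = 0.0761). Scaling by library totals alone moved the median of all genes in this comparison to -0.34. With that scaling Rrm2, Prim1, Pcna and Ccnd1 stayed higher, while Mcm4 (0.03), Mcm10 (0.37) and Foxm1 (0.00) did not pass. Mcm10 (0.24) and Foxm1 (0.01) also did not pass with quantile-normalized values, and Foxm1 did not without the first CD library or the first adult library. In the list of other replication genes, Timeless, a protein of the replication fork that also acts in circadian timing, had 5.77 and 6.10 CPM in CD organoids and 32.7 and 32.9 in adult mCD (2.46 ± 0.10, adjusted p = 2.19e-10). The proximal tubule and endothelial markers of the adult libraries move with all of these differences, and their part in them was not tested.

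Per kilobase of exon, the leading members changed from group to group. Top2a (106 CPM per kb), Mki67 (94.9) and Ccnd2 (76.9) led at day 5. Day 20 was led by Ccnd2 (123), Ccnd1 (94.8), Mki67 (49.5) and Pcna (48.6). The highest members in CD organoids were Pcna (18.6), Ccnd2 (13.4), Mcm4 (9.24) and Mki67 (8.21). In adult mCD they were Ccnd1 (84.2), Pcna (28.8), Mcm4 (12.4) and Rrm2 (12.2). These levels are means of 2 libraries, and neighbouring values in this order were not tested against each other.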

How the data were processed

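RNA-seq was analysed from 10 libraries, 2 in each of 5 groups defined by the sample labels. The authors deposited whole-number counts per gene, and the sources differ on how these were made. The paper's methods give STAR alignment to mm10 and the E/M model of Partek Flow with GENCODE M24, whereas the submitters' processing notes list Trimmomatic 0.36, cutadapt 2.5, STAR, edgeR 3.28.1 and GRCm38.p6. How reads shared by near-identical genes were counted is therefore not known. The deposited RPKM values and the deposited signal that the authors call TMM values (counts scaled to a common total) served as an alternative and as a check of the columns. For the members, the length behind the RPKM was 1.01 to 3.71 times the exon length of GENCODE M21, so levels per kb use the latter. The reads were not processed again.

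Counts were tested with edgeR 4.0.16 (R 4.3.3) by its quasi-likelihood test with TMM factors of 0.792 to 1.12, Benjamini-Hochberg adjustment and a prior count of 1, in a fit of group means over all 10 libraries. The 24410 genes with at least 10 counts in total were tested, and all 48 members passed this filter. The common dispersion was 0.00831. CPM of members and markers are scaled by library total times TMM factor, and 3 counts are given in CPM of the total. Standard errors were derived from the test statistic. On simulated data for CD organoids against day 10, 95 of 100 genes changed 2-fold and 100 of 100 changed 4-fold were recovered among 23581 genes, with 9 false calls. Limits set by counts reflect counting error alone, as no molecular identifiers are described.

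The members and lists were chosen with earlier results of these data known. Genes are named where they are the most or least changed of their role in CD organoids, among the highest in level, opposite to most of their role, or cyclins or factors; Cdt1, Aurkb, Bub1b, Cdk1, Birc5, Myc, Rb1 and Ccnd3 were chosen after their values were seen. For 22 members another annotated gene overlaps the locus, for 8 of them on the same strand. Alternatives were library totals, quantile-normalized values and RPKM with limma 3.58.1, DESeq2 1.42.0, another prior count, other filters, fits of the libraries compared alone, a replicate block and leaving out each library. For RPKM a constant was added before the log2, which shrinks the changes of genes with low RPKM. Promoter windows and their coordinates are from RefSeq on GRCm38.p6. Python 3.11.15, numpy 2.4.6, pandas 2.3.3 and matplotlib 3.10.9 were used.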

Additional observations from a re-analysis of the deposited data

How the results depend on the processing

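Most values held under the alternatives. Of the recomputed counts of members and gaps between medians, leaving aside those without a library, 181 stayed within the limits set for them and 8 moved. The members that rose from day 10 to day 20 numbered 1 instead of 2 with library totals alone, with quantile-normalized values and with DESeq2. The members higher in adult mCD than in CD organoids numbered 4 instead of 7 with library totals alone. The replication median minus the mitosis median moved to 0.87 from 0.78 for CD organoids against day 10 with quantile-normalized values. For adult mCD against day 20 it moved from 1.24 to 1.37 with quantile-normalized values and to 1.04 with RPKM, and for adult mCD against CD organoids from 0.80 to 0.34 with RPKM. Of the log2 fold changes of single genes, 1 reversed, that of E2f1 in adult mCD against CD organoids, which was 0.09 and became -0.50 with quantile-normalized values (adjusted p = 0.0457), 55 lost their call and 25 gained one. For RPKM, the constant added before the log2 shrinks the changes of genes with low values. The part of this constant, and the cause of the other changes, was not tested.

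Leaving out each library in turn gave 21 to 31 members that fell from day 5 to day 10 and 2 to 4 that rose, where 2 came without the first day 5 or the second day 10 library. From day 10 to day 20 it gave 12 to 31 that fell, with 12 without the second day 20 library, and 1 to 3 that rose, with 1 without the first day 10 library or either day 20 library. In adult mCD against CD organoids 18 to 21 were lower and 6 to 7 higher, and the gap between medians ranged from 0.61 to 0.92. For the other comparisons that gap ranged from 0.44 to 0.49 (day 10 against day 5), 0.24 to 0.32 (day 20 against day 10), 0.60 to 0.67 (day 20 against day 5), 0.76 to 0.80 (CD organoids against day 10), 0.58 to 0.64 (CD organoids against day 20) and 1.23 to 1.33 (adult mCD against day 20). The 48 members lower in CD organoids than at day 10 remained 48 in each case. With 1 library left in a group, its spread is taken from the other groups.

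Whether replicate numbers pair the libraries is not stated. The correlation of deviations between same-numbered libraries ranged from -0.055 to 0.14 over the 10 pairs of groups. With 2 libraries a group, low values of this kind cannot show that there is no pairing. With a replicate block, 28 members fell and 4 rose from day 5 to day 10, and 28 fell and 2 rose from day 10 to day 20. With 2 libraries a group and 1 value of a member at or under 3 counts, depth limits most the members with few counts in CD organoids or adult mCD, namely Fen1, Gins1, Orc1, Cdc45, Ttk, E2f8 and Mybl2, each with 2.49 CPM or less in at least 1 of these libraries.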

Other observations

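Genes of G1 control and of the E2F and DREAM complexes, which were tested as a list of 23 genes, had calls in both directions. From day 5 to day 20, 12 fell and 3 rose, from day 10 to CD organoids 17 fell and 3 rose, and in adult mCD against CD organoids 7 were lower and 8 higher. Of all genes tested, 24.6% were lower and 20.6% higher in the first of these comparisons, 25.2% and 22.1% in the second, and 23.8% and 26.1% in the last, so the counts in adult mCD and those of genes that rose lie near or below the background. The edgeR values that follow are from the same fit as in the report. Mycn, a Myc family factor of embryonic progenitors, had 65.7 and 62.2 CPM at day 5, 18.2 and 8.64 at day 10, 2.06 and 2.97 at day 20, 0.570 and 0.401 in CD organoids, and 12.7 and 13.2 in adult mCD. Its log2 change from day 5 to day 20 was -4.64 ± 0.30 (adjusted p = 4.86e-08). Myc rose over the same span, from 14.7 and 18.4 to 51.0 and 73.7 CPM (1.91 ± 0.19, adjusted p = 1.95e-06), had 9.04 and 10.0 CPM in CD organoids and 85.3 and 66.6 CPM in adult mCD.

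In this list 3 genes, Ccnd3, Rb1 and Rbl2, were higher in CD organoids than at day 10, where all 48 replication and mitosis genes were lower. Rb1, which encodes the retinoblastoma protein that holds back E2F factors, had 28.5 and 25.5 CPM at day 10, 62.8 and 64.4 in CD organoids, and 113 and 108 in adult mCD (1.24 ± 0.083 for CD organoids against day 10, adjusted p = 2.99e-08). Ccnd3, the remaining D-type cyclin, had 80.7 and 40.7 CPM at day 10 and 127 and 142 in CD organoids (1.15 ± 0.21, adjusted p = 0.000379). Mybl1, which encodes A-Myb, had 9.79 and 13.9 CPM at day 10 and 33.99 and 35.6 at day 20 (1.55 ± 0.17, adjusted p = 2.04e-05), and E2f7, the relative of E2f8, changed by 0.26 ± 0.16 in that step (adjusted p = 0.248).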
